A study of Mus musculus with 6 samples.

Results

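The expression of 29 genes of sterol and fatty acid synthesis was examined in infarcted mouse hearts that carried or lacked the receptor for thymic stromal lymphopoietin (TSLP). The 29 genes were chosen by name as steps and regulators of the 2 pathways, and each matched 1 of the 54532 genes of the table. Of these, 21 belong to the sterol pathway and 8 to the fatty acid pathway. Bulk RNA sequencing had been performed on the peri-infarcted and infarcted heart tissue of 3 wild-type (WT) and 3 TSLP receptor (TSLPR) knockout mice, with 1 library per mouse. All 6 mice were on a C57BL/6 background, underwent ligation of the left anterior descending artery to induce myocardial infarction (MI), and were sampled on day 7 post-MI. The study's methods describe male C57BL/6J mice, 8 to 12 weeks old when acquired. The knockout mice, named Crlf2-/- after the gene for the TSLP-binding receptor chain, were generated by another supplier than the one that provided the WT mice, and whether the sequenced WT mice were littermates is not given in the sources used here. No restriction of the knockout to a cell type is described, and no sham-operated or uninjured heart was analysed here. The comparison asks which genes differ in the infarcted heart when TSLP cannot signal.

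Cholesterol is built from acetyl-CoA through mevalonate, isoprenoid diphosphates, squalene and lanosterol. The genes of this route are switched on together by the transcription factor SREBP2, which is held in the endoplasmic reticulum by INSIG proteins and SCAP when sterols are plentiful and is released to the nucleus when they are scarce. Fatty acids are built from the same acetyl-CoA by acetyl-CoA carboxylase and fatty acid synthase, then lengthened and desaturated, under the control of SREBP1c. In the heart most energy comes from burning fatty acids rather than making them, while macrophages and dividing cells of a healing wound use both routes to make membrane.

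Promoter sequences are shown first because SREBP2 acts through short elements close to the start of its target genes. Promoters from RefSeq (build GRCm38.p6, 250 bases before to 50 bases after each annotated start) were found for 23 of the 29 genes, and not for Fdps, Fdft1, Sqle, Stard4, Scd1 and Scd2. Each was searched on both strands for TCACNCCAC, a core form of the sterol regulatory element, for ATTGG, the reverse of the CCAAT box bound by NF-Y, for GGGCGG, the GC box bound by Sp1, and for CACGTG, an E-box. No motif contains another, but ATTGG matches on opposite strands can overlap, as 2 of them do in Fasn. The 250 bases before the start are given below for Hmgcs1, which held the single TCACNCCAC match, for Mvk, which held the most ATTGG matches, for Insig1 and Idi1, which had the smallest p-values among the sterol genes with a promoter, and for Fasn as a fatty acid gene. These 5 were picked after their values had been seen, and capitals mark the matches. The regions are chr13:119690101-119690350 (plus strand) for Hmgcs1, chr5:28071162-28071411 (plus strand) for Insig1, chr13:8885356-8885605 (plus strand) for Idi1, chr5:114444019-114444268 (plus strand) for Mvk and chr11:120824548-120824797 (minus strand) for Fasn.
Hmgcs1: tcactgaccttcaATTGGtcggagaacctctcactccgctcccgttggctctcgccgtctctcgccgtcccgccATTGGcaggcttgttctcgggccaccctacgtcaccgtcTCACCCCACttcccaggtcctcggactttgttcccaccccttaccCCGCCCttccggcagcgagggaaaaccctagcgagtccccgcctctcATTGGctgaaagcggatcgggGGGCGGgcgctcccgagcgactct
Insig1: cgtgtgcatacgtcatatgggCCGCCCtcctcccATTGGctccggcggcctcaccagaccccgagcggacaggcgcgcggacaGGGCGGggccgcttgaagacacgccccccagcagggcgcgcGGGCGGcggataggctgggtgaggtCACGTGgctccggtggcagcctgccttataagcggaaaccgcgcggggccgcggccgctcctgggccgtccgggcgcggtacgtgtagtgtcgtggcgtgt
Idi1: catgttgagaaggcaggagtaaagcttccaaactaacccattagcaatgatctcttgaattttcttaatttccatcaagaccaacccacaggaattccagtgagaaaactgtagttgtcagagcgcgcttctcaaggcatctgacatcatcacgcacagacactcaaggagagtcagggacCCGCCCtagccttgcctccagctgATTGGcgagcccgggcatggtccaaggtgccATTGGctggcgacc
Mvk: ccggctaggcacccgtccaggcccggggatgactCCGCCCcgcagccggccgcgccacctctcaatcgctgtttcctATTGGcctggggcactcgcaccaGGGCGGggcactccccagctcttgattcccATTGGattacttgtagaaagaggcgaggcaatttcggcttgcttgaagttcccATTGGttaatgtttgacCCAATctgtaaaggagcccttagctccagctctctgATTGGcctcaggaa
Fasn: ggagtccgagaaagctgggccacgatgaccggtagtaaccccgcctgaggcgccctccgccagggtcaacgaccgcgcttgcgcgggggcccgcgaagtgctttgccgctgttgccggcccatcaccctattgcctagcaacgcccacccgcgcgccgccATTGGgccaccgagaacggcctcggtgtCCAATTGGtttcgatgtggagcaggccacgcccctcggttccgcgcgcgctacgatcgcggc

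Of the 17 sterol genes with a promoter, 16 held ATTGG, as did 37.4% of the 32851 promoters in the whole table and 37% of the promoters of genes expressed in these hearts. GGGCGG was also found in 16 of the 17, against 35.7% of all promoters and 59.6% of those of expressed genes. For CACGTG the count was 4 of 17 genes (Hsd17b7, Sc5d, Dhcr7 and Insig1), against 7.15% of all promoters and 9.46% of those of expressed genes. The element TCACNCCAC was matched in 1 sterol promoter, that of Hmgcs1, 137 bases before the start, against 1.24% of all promoters. Genes with several starts had more chances to match, and counted by promoter ATTGG lay in 16 of 20. Counted by gene, the shares in the whole table were 41.1% for ATTGG, 38.2% for GGGCGG, 8.09% for CACGTG and 1.44% for TCACNCCAC. The 6 fatty acid genes with a promoter held ATTGG in 4, GGGCGG in 3 and the other 2 motifs in 0. Mvk carried 5 ATTGG matches, spaced from 173 to 14 bases before its start. These are matches of letters and no measurement of binding.

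**Figure D1:**
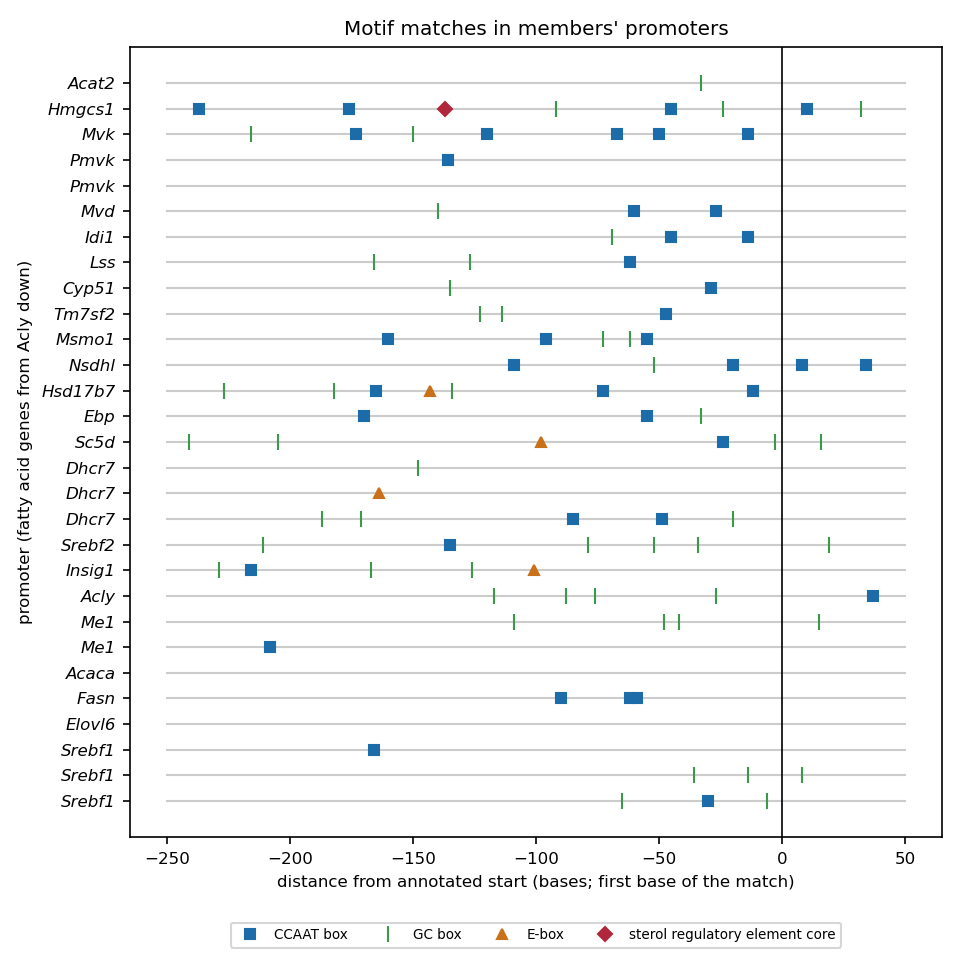
Positions of the 4 motifs in the promoters of the 23 genes, with the distance of the first base of each match from the annotated start on the x axis and 1 line per promoter on the y axis (genes with several starts have several lines). CCAAT boxes (blue squares) and GC boxes (green ticks) recur down the sterol genes, and the sterol regulatory element core (red diamond) appears only in Hmgcs1. The fatty acid genes below have 9 lines against 20 for the sterol genes. Of these 9 promoters, 5 hold a CCAAT box, 4 a GC box and 0 an E-box.

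Expression was deposited by the authors as FPKM, fragments corrected for exon length and for the size of the library, and the FPKM given here were further adjusted with trimmed-mean-of-M-values factors. The libraries held 18508646 to 19682428 fragments assigned to genes. As a check of the labels, Crlf2 itself had 917, 813 and 707 fragments in the WT libraries and 437, 651 and 667 in the Crlf2-/- libraries. Crlf2 transcripts were thus lower in each Crlf2-/- library than in each WT library but not absent, and the exons that these fragments came from are not recorded in a table of genes. The sample labels also describe extraction from another tissue, whereas the tissue label and the study's methods name the heart. All 12 cardiomyocyte markers examined were present in every library, with a summed level of 784 to 2153 FPKM.

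Most of the sterol genes had somewhat higher values in Crlf2-/- than in WT hearts, among them Sqle, Idi1 and Insig1, but no single gene reached the threshold for a call. In bulk tissue, more cells of a type and more RNA per cell cannot be told apart, nor can fewer cells and less RNA per cell. The log2 fold change (Crlf2-/- minus WT, on log2(FPKM + 0.1)) was above 0 for 18 of the 21 sterol genes and for 8 of the 8 fatty acid genes, against 49.1% of all genes tested. Its median was 0.27 over the sterol genes and 0.18 over the fatty acid genes, against -0.0042 over all 15520 genes tested. The threshold was an adjusted p of no more than 0.05 from limma (Benjamini-Hochberg) together with a log2 fold change of 0.5 or more in size. By this rule 0 of the 29 genes and 2 of all genes (0.0129%) were called, and limma's voom on fragments also called 0 of the 29, against 0.0193% of all genes. At an unadjusted p under 0.05, limma found 8 sterol genes (Hmgcs1, Mvk, Idi1, Fdps, Sqle, Cyp51, Srebf2 and Insig1) and 1 fatty acid gene (Scd2) higher, against 3.22% of all genes, and 0 of the 29 lower, against 3.36%. With voom the sterol count was 9, against 3.14% of all genes. The count of 8 leaned on 2 libraries, since it was 3 without WT replicate 3 and also 3 without Crlf2-/- replicate 2. Every Crlf2-/- library lay above every WT library for 10 of the 21 sterol genes and 3 of the 8 fatty acid genes, against 5.37% of all genes. No gene of the 29 showed the opposite separation, which 6.37% of all genes did. All 29 passed the filter of at least 10 fragments in at least 3 libraries, but for Fdps only 1 WT library reached 10 fragments, and without this gene the sterol median was 0.26. The 29 genes are steps of shared pathways measured in the same 6 libraries, so their counts are not counts of independent observations. For 8 of the 29, at least 5% of 100-base stretches of their transcripts also occur in other genes, and these values are less certain.

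**Figure D2:**
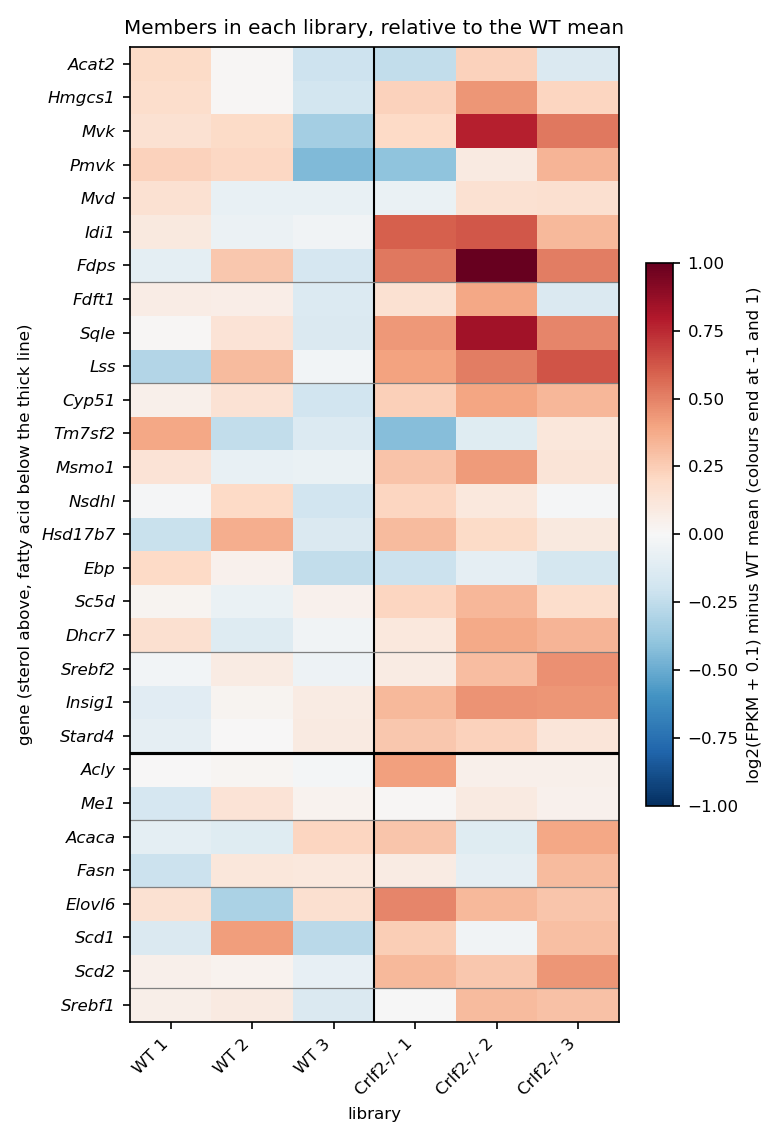
Heat map of the 29 genes (y axis, sterol genes above the thick line and fatty acid genes below it) in each of the 6 libraries (x axis), coloured by log2(FPKM + 0.1) minus the WT mean, with red for higher. The 3 Crlf2-/- columns are mostly red for Idi1, Fdps, Sqle, Lss and Insig1, whereas Ebp, Tm7sf2 and Acat2 have no such block, and the colours end at 1, which Fdps in Crlf2-/- replicate 2 exceeds.

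The first enzymes of the sterol route join acetyl-CoA units and carry them to mevalonate. Acat2, the thiolase that makes acetoacetyl-CoA, was at 4.06, 3.58 and 3.05 FPKM in WT and 2.97, 4.18 and 3.18 FPKM in Crlf2-/- hearts, with a log2 fold change of -0.05. Its groups overlapped, and 28.9% of its 100-base stretches occur in other genes, all of them in Acat3. Hmgcs1, the cytosolic HMG-CoA synthase, was at 9.46, 8.43 and 7.36 FPKM in WT and 9.87, 11.4 and 9.73 FPKM in Crlf2-/- hearts. The lowest Crlf2-/- library exceeded the highest WT library by little, and the log2 fold change was 0.30 ± 0.13 (SE) with a limma adjusted p = 0.740.

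Mevalonate is phosphorylated by Mvk and Pmvk and decarboxylated by Mvd. For Mvk the WT hearts gave 3.34, 3.42 and 2.34 FPKM and the Crlf2-/- hearts 3.44, 5.203 and 4.36 FPKM. The groups were apart by the narrow step between WT replicate 2 and Crlf2-/- replicate 1, and the log2 fold change was 0.50 ± 0.20 (SE) with a limma adjusted p = 0.702. Pmvk and Mvd did not separate, with log2 fold changes of 0.01 and 0.08. The sign for Pmvk depended on single hearts, and its leave-one-out values ran from -0.21 to 0.21.

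Idi1, the isomerase that makes the reactive isoprenoid unit, was among the genes with the largest log2 fold changes. Its level was 1.32, 1.17 and 1.20 FPKM in WT and 1.91, 1.95 and 1.56 FPKM in Crlf2-/- hearts. The gap between the groups exceeded the whole spread among the WT hearts, with a log2 fold change of 0.51 ± 0.16 (SE) and a limma adjusted p = 0.494. Of its 100-base stretches, 21.9% are shared with other genes, mostly Gm13502. Fdps, which makes farnesyl diphosphate for sterols and for protein prenylation, had the fewest fragments and a log2 fold change of 0.70 ± 0.26 (SE) with a limma adjusted p = 0.635. Its size depended on the pseudocount, at 1.22 with a pseudocount of 0.01, 0.14 with a pseudocount of 1 (where Sqle was at 0.41) and 1.28 with voom. Only 6, 10 and 5 fragments fell on it in the WT hearts, against 14, 26 and 14 in the Crlf2-/- hearts, so counting error is large. Its annotated exons lie for 26.7% of their bases under those of Gm43738, a same-strand gene listed at 0 in every library, and how fragments that fit both genes were counted is not given in the sources used here.

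Squalene is formed by Fdft1, oxidised by Sqle and closed to lanosterol by Lss, and this short stretch had the highest median log2 fold change among the sterol steps, at 0.51. With 3 genes, this median is the value of Lss alone. Sqle, which encodes squalene epoxidase, a rate-limiting enzyme of the route, was at 1.63, 1.78 and 1.45 FPKM in WT and 2.22, 2.97 and 2.31 FPKM in Crlf2-/- hearts. All 3 Crlf2-/- hearts stood clear of the WT hearts. The log2 fold change of Sqle (ENSMUSG00000022351, chr15:59315077-59331192, plus strand) was 0.59 ± 0.16 (SE) with a limma adjusted p = 0.393, and it stayed between 0.47 and 0.67 with any 1 library removed. Lss was at a low level, 0.280, 0.479 and 0.356 FPKM in WT and 0.512, 0.562 and 0.619 FPKM in Crlf2-/- hearts. Here too the groups did not overlap, and the log2 fold change was 0.51 ± 0.23 (SE), or 0.19 with a pseudocount of 1. Fdft1, the branch point enzyme, overlapped between the groups with a log2 fold change of 0.13, which ran from 0.0040 to 0.27 with single libraries left out. Ctsb, a cathepsin gene at 484 to 783 FPKM on the opposite strand, covers 18.3% of its exonic bases. Whether fragments were counted by strand is not given in the sources used here, so reads of Fdft1 and Ctsb in that stretch cannot be told apart.

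The 8 enzymes that convert lanosterol to cholesterol had a median log2 fold change of 0.22. Cyp51, the lanosterol demethylase, was at 6.29, 6.70 and 5.31 FPKM in WT and 7.16, 8.02 and 7.66 FPKM in Crlf2-/- hearts, and these ranges did not meet. Its log2 fold change was 0.32 ± 0.12 (SE) with a limma adjusted p = 0.652. Sc5d, a sterol desaturase, was at 3.36, 3.13 and 3.39 FPKM in WT and 3.84, 4.17 and 3.72 FPKM in Crlf2-/- hearts, again without overlap, and its log2 fold change was 0.24. For the monooxygenase Msmo1 (0.28), the reductase Dhcr7 (0.27), the reductase Hsd17b7 (0.20) and the decarboxylating dehydrogenase Nsdhl (0.10) the log2 fold changes were above 0 while the libraries overlapped. With single libraries left out, Hsd17b7 ran from 0.09 to 0.39 and Nsdhl from 0.0072 to 0.20. Ebp, the sterol isomerase, pointed the other way. It was at 13.6, 12.1 and 9.94 FPKM in WT and 10.1, 11.1 and 10.4 FPKM in Crlf2-/- hearts, with a log2 fold change of -0.16 and overlapping groups. Tm7sf2, a sterol reductase at 0.526 FPKM (SD 0.155, n = 3) in the WT group against 0.462 FPKM (SD 0.104, n = 3) in Crlf2-/- hearts, also had a negative value, -0.14, which turned to 0.05 without WT replicate 1. Vps51 on the same strand covers 12.1% of its exonic bases. The enzymes Acat2, Ebp and Tm7sf2 were the only sterol genes of the list with values below 0.

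**Figure D3:**
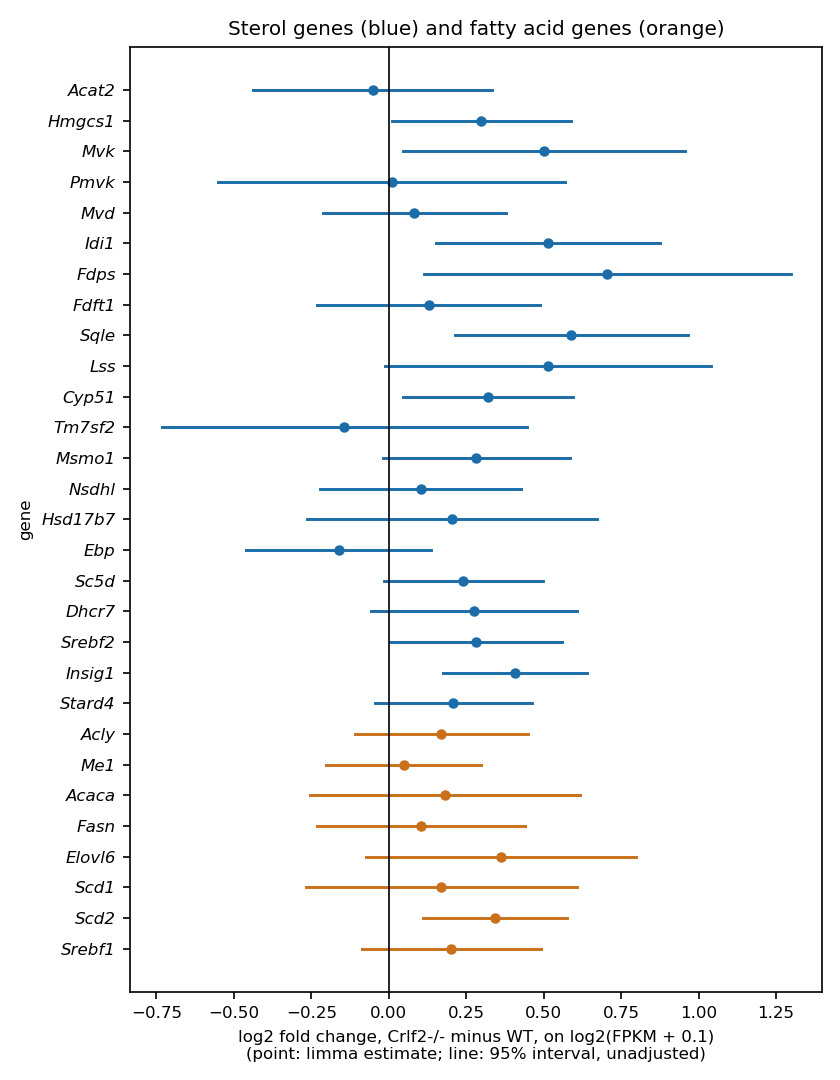
Log2 fold change of each gene (x axis, Crlf2-/- minus WT on log2(FPKM + 0.1)) for the 29 genes (y axis, sterol in blue and fatty acid in orange), where points are limma estimates and lines their unadjusted 95% confidence intervals. Most points lie to the right of 0, from -0.16 for Ebp to 0.70 for Fdps, and the intervals of 20 of the 29 genes include 0.

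Among the genes that control sterol supply, Insig1 had the smallest p-value of the list. INSIG1 holds SCAP and SREBP2 in the endoplasmic reticulum, and the Insig1 gene is itself a target of SREBP2. Insig1 (ENSMUSG00000045294, chr5:28071363-28078662, plus strand) was at 7.92, 8.75 and 9.06 FPKM in WT and 10.7, 11.8 and 11.7 FPKM in Crlf2-/- hearts. The 2 groups were tight and apart, with means of 8.58 FPKM (SD 0.594, n = 3) and 11.4 FPKM (SD 0.565, n = 3). The log2 fold change of Insig1 was 0.41 ± 0.10 (SE) with a limma adjusted p = 0.326 and moved only between 0.35 and 0.45 when single libraries were left out. Insig2, its paralogue, had a log2 fold change of -0.02. Srebf2, which encodes SREBP2, was at 7.96, 8.61 and 7.84 FPKM in WT and 8.61, 10.1 and 11.2 FPKM in Crlf2-/- hearts. The groups overlapped in their nearest libraries, WT replicate 2 and Crlf2-/- replicate 1, and the log2 fold change was 0.28 ± 0.12 (SE) with a limma adjusted p = 0.753. Stard4, a carrier of cholesterol between membranes, was at 3.77, 4.04 and 4.28 FPKM in WT and 4.87, 4.74 and 4.39 FPKM in Crlf2-/- hearts. Its groups did not overlap and its log2 fold change was 0.21. The exact permutation test between groups (two-sided) gave p = 0.1 for each gene whose groups did not overlap, the smallest p that 3 mice against 3 allow.

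**Figure D4:**
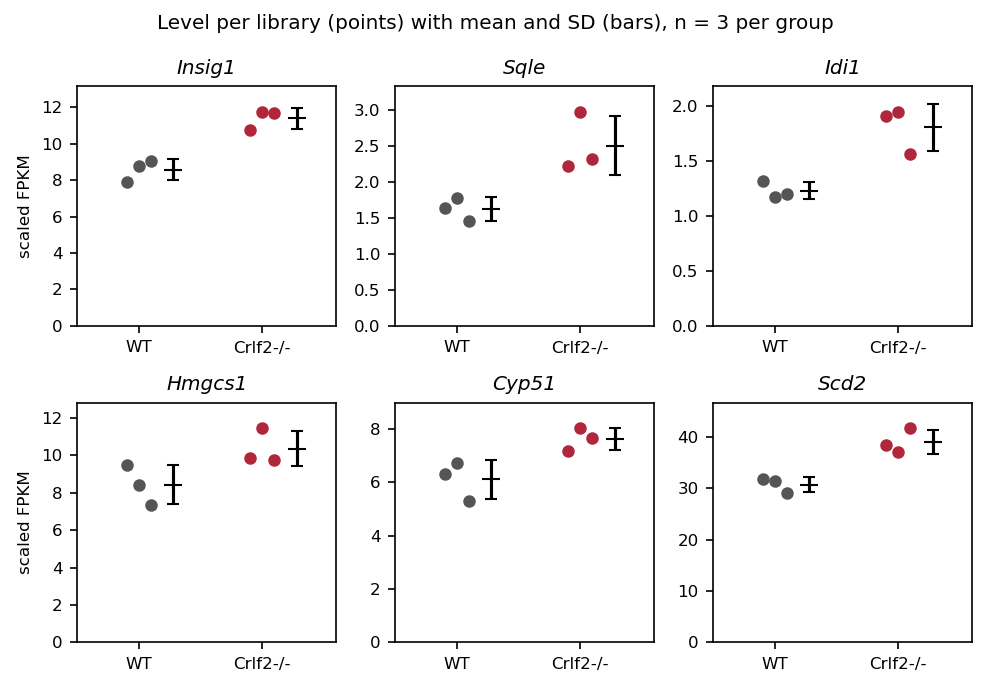
Scaled FPKM (y axis, from 0) of 6 genes in each WT (grey) and Crlf2-/- (red) heart, with mean and SD as bars. In all 6 panels each Crlf2-/- heart lies above each WT heart, with the narrowest gap relative to level in Hmgcs1 (9.46 against 9.73 FPKM). All 6 belong to the 13 of the 29 genes with this separation, against 5.37% of all genes, so it follows from the choice of panels.

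Of the fatty acid genes, Elovl6 and Scd2 had the largest log2 fold changes, and Me1 had the smallest. Acly, which cleaves citrate to cytosolic acetyl-CoA and so feeds both pathways, was at 18.3, 18.6 and 18.0 FPKM in WT and 24.4, 18.9 and 18.9 FPKM in Crlf2-/- hearts. These did not overlap, but the log2 fold change came largely from Crlf2-/- replicate 1, without which its value of 0.17 was 0.05. Me1, the malic enzyme that supplies NADPH, had a log2 fold change of 0.05, with groups that overlapped. Acaca and Fasn, the carboxylase and the synthase that make palmitate, were at 1.47 (SD 0.211) and 6.09 FPKM (SD 0.777, n = 3) in the WT group against 1.69 (SD 0.313) and 6.57 FPKM (SD 0.950, n = 3) in Crlf2-/- hearts. Their log2 fold changes were 0.18 and 0.11, and the hearts of the 2 groups overlapped. Of the Acaca stretches, 23.7% are shared with other genes, chiefly Gm5182.

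Elovl6, which lengthens palmitate, was at 1.24, 0.868 and 1.25 FPKM in WT and 1.59, 1.41 and 1.36 FPKM in Crlf2-/- hearts. The groups were apart and the log2 fold change was 0.36 ± 0.19 (SE). Scd1 and Scd2 encode desaturases that introduce the double bond of oleate and palmitoleate. Scd2 (ENSMUSG00000025203, chr19:44293676-44306864, plus strand), the gene with the highest level of the list, was at 31.7, 31.4 and 28.96 FPKM in WT and 38.3, 37.0 and 41.6 FPKM in Crlf2-/- hearts. Its groups were well apart, with a log2 fold change of 0.34 ± 0.10 (SE) and a limma adjusted p = 0.456. Scd1 was at 5.43, 8.07 and 4.96 FPKM in WT and 7.14, 5.85 and 7.43 FPKM in Crlf2-/- hearts, so that the highest value of all was that of WT replicate 2. Its log2 fold change was 0.17, from 0.03 to 0.38 with single libraries left out, and the difference between the 2 desaturases was not tested. Srebf1, the gene for SREBP1, was at 8.63 FPKM (SD 0.7497, n = 3) in the WT group against 9.96 FPKM (SD 1.20, n = 3) in Crlf2-/- hearts, with overlapping libraries and a log2 fold change of 0.20.

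The sterol and fatty acid genes were then set against each other library by library. Relative to the WT mean, the median deviation of the sterol genes was 0.07, 0.04 and -0.14 in the WT hearts and 0.22, 0.38 and 0.21 in the Crlf2-/- hearts on the log2 scale. For the fatty acid genes it was -0.05, 0.06 and 0.01 in WT and 0.26, 0.07 and 0.30 in Crlf2-/- hearts. Both medians were thus higher in each Crlf2-/- heart than in each WT heart, but they did not peak together. For the fatty acid genes this was nearly a tie, at 0.0709 in Crlf2-/- replicate 2 against 0.0611 in WT replicate 2. Crlf2-/- replicate 2 had the highest sterol and the lowest fatty acid median of its group. The sterol median minus the fatty acid median was 0.12, -0.02 and -0.15 in WT and -0.05, 0.31 and -0.08 in Crlf2-/- hearts, and these overlapped. The summed level was also apart between the groups. For the sterol genes it was 73.2 to 84.3 FPKM in WT and 87.1 to 99.8 FPKM in Crlf2-/- hearts. For the fatty acid genes it was 84.4 to 92.3 FPKM and 96.7 to 104.7 FPKM. Sums weigh the highest genes most. The mevalonate and isoprenoid steps overlapped, at 19.4 to 25.5 FPKM in WT and 23.8 to 30.0 FPKM in Crlf2-/- hearts. So did the lanosterol to cholesterol steps, whereas the squalene steps and the control and transport genes were apart. Of the fatty acid genes only elongation and desaturation, which include Scd2, were apart, at 35.2 to 40.3 FPKM and 44.2 to 50.4 FPKM. Of the 21 sterol genes, 12 had their highest value in Crlf2-/- replicate 2, which held the highest value of 16.9% of all genes, and 10 had their lowest in WT replicate 3, which held the lowest of 19.95% of all genes.

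**Figure D5:**
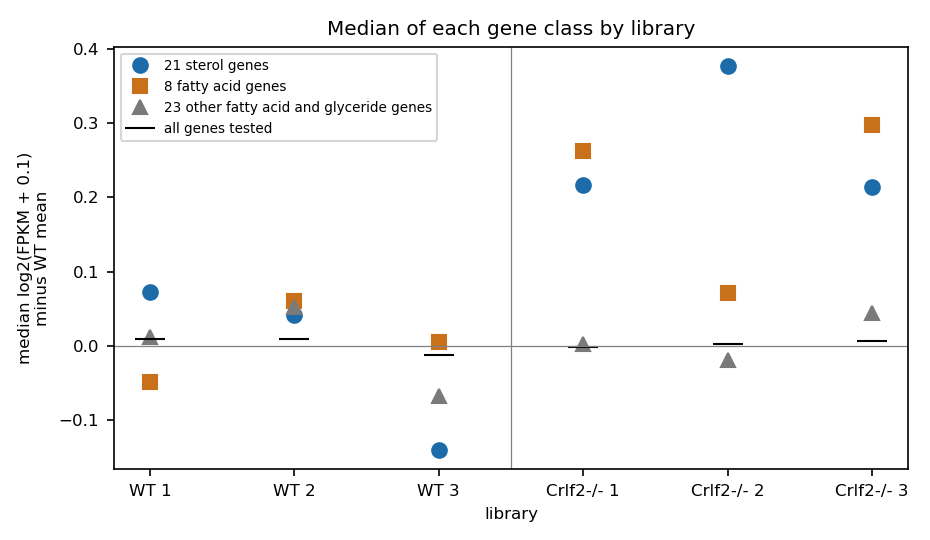
Median log2(FPKM + 0.1) minus the WT mean (y axis) in each library (x axis) for the 21 sterol genes (blue), the 8 fatty acid genes (orange), 23 other genes of fatty acid and glyceride synthesis (grey) and all genes tested (black lines). Within the blue class the Crlf2-/- points (0.21 to 0.38) lie above the WT points (-0.14 to 0.07). Within the orange class they do so only by a narrow step (0.07 to 0.30 against -0.05 to 0.06), while the grey and black marks stay near 0.

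Genes of the same pathways outside the list were examined next. Over all genes tested, 49.1% had a log2 fold change above 0. Scap, whose product escorts SREBP2, had a log2 fold change of 0.02. Genes of sterol sensing, storage and export, many of them targets of the oxysterol receptor LXR, numbered 12, of which 5 had a log2 fold change above 0 and 7 below, with a median of -0.01. Every Crlf2-/- heart lay below every WT heart for 3 of the 12, Mylip, Nr1h3 (-0.21) and Ch25h (-0.21), against 6.37% of all genes. The opposite separation was seen in 0 of the 12. Only Mylip, an LXR-induced ubiquitin ligase, had an unadjusted p under 0.05 in limma, against 3.36% of all genes that were lower at this p. It was at 18.4, 18.3 and 18.8 FPKM in WT and 15.7, 15.7 and 15.6 FPKM in Crlf2-/- hearts, a log2 fold change of -0.24 (adjusted p = 0.635). The cholesterol exporters Abca1 and Abcg1 had log2 fold changes of 0.01 and -0.05. Of the 28 other genes of fatty acid and glyceride synthesis, 23 passed the filter, 10 above 0 and 13 below, with a median of -0.01. Within these, the desaturase Fads2 was at 8.61, 10.01 and 10.5 FPKM in WT and 13.3, 10.5 and 12.9 FPKM in Crlf2-/- hearts, with a log2 fold change of 0.33 (adjusted p = 0.707 from limma), and the groups overlapped slightly. The desaturase Fads1 had a log2 fold change of 0.20 and did not overlap. Values for Acacb (-0.29), Acss2 (-0.10), Elovl5 (-0.18), Mlxipl (0.32) and Thrsp (-0.63) all came from overlapping groups.

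Marker genes of the cell types in the tissue were examined beside these values. Over all genes tested, 49.1% had a log2 fold change above 0. At an unadjusted p under 0.05 in limma, 3.22% of all genes were higher and 3.36% lower, so 1 such gene in a short list is little. The 12 cardiomyocyte markers had log2 fold changes below 0 in 12 of 12, with a median of -0.66 and 4 at an unadjusted p under 0.05, and their summed level was 1149 to 2153 FPKM in WT and 784 to 1514 FPKM in Crlf2-/- hearts. Of 12 adipocyte markers 8 passed the filter, all 8 below 0 with a median of -1.16 and 2 at an unadjusted p under 0.05, and their summed level was 62.3 to 134.9 FPKM in WT and 32.6 to 80.2 FPKM in Crlf2-/- hearts. The 8 T cell markers were below 0 in 8 of 8 with a median of -1.12 and 7 at an unadjusted p under 0.05, at 8.14 to 13.0 FPKM in WT and 3.80 to 5.59 FPKM in Crlf2-/- hearts. Macrophage and monocyte markers lay above 0 in 11 of 13 with a median of 0.09 and 1 at an unadjusted p under 0.05, at 2437 to 4376 FPKM in WT and 2871 to 3583 FPKM in Crlf2-/- hearts. That 1 was Ly6c2, a marker of inflammatory monocytes, at 4.13, 5.09 and 4.30 FPKM in WT and 5.21, 8.01 and 7.18 FPKM in Crlf2-/- hearts, a log2 fold change of 0.57 with a limma adjusted p = 0.483 and every Crlf2-/- heart above every WT heart. The 8 proliferation genes lay above 0 in 8 of 8 with a median of 0.15, at 38.6 to 56.5 FPKM in WT and 47.1 to 53.3 FPKM in Crlf2-/- hearts, and none of them had an unadjusted p under 0.05 in limma. Fibroblast (median -0.10), endothelial (-0.10) and Schwann cell markers (0.08) had medians closer to 0, and the fibroblast marker Tcf21 (-0.44) had an unadjusted p under 0.05. Of 8 liver markers, 2 passed the filter, 1 above and 1 below 0. No marker of the cardiomyocyte, adipocyte, macrophage, T cell or proliferation lists was at 0 in every library, while the adipocyte markers Lep, Retn and Adig were at 0 in at least 1. The median deviation of the cardiomyocyte markers from the WT mean was -0.56, 0.19 and 0.31 in the WT hearts and -0.92, -1.09 and -0.11 in the Crlf2-/- hearts. WT replicate 3 had the highest cardiomyocyte and the lowest sterol median of the 6 hearts, and Crlf2-/- replicate 2 had the lowest cardiomyocyte and the highest sterol median. WT replicate 1 and Crlf2-/- replicate 3 did not follow this order, since WT replicate 1 had the lower cardiomyocyte median and also the lower sterol median of the 2. The part that these cell types have in the sterol and fatty acid values was not tested.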

How the data were processed

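RNA of 6 infarcted hearts, 3 WT and 3 Crlf2-/-, had been sequenced. Per the study's methods the authors trimmed reads with fastp, aligned them with HISAT2 2.0.5, counted fragments per gene with featureCounts and computed FPKM, the values they deposited beside gene lengths. Replicates were not pooled. The submitters' processing notes name mm10, and also hg38. Of the 54532 listed genes, 54409 are in GENCODE M21 (GRCm38), and 53499 of those have identical start and end positions.

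The deposited FPKM gave whole fragments (tolerance 0.05) for 100% of nonzero values, and depth and the filter were taken from these. FPKM were adjusted with trimmed-mean-of-M-values factors. Genes that reached 10 fragments in 3 or more libraries, and 15 over all libraries, were tested as log2(FPKM + 0.1) with limma 3.58.1 in R 4.3.3 (eBayes with trend and robust) and Benjamini-Hochberg adjustment over all 15520 genes. This scale understates the fold change of low genes. A gene with few fragments, such as Fdps, is imprecise from counting alone. No genotype was inferred from the data, and groups came from the sample titles. Labels do not say more of the replicates than 1 number per library, but the study gives 3 mice per group. The p-values therefore rest on the spread between mice within each group.

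The genes and lists were chosen with earlier results of these data known. All 29 genes were named whatever their values, with further pathway genes fixed in a list and those at an unadjusted limma p under 0.05. Results that need an item withheld for evaluation are not reported here. A gene list received no test and no p-value. The cut-offs for a call were the study's own, but the study applied them to the results of another test than limma. The numbers of genes called here are therefore not the outcome of the study's own test. Alternatives were 2 other scalings, 2 other filters, pseudocounts of 1 and 0.01, limma's voom on fragments, the replicate number as a block and leaving out each library. The fits were tested on simulated data first. Same-numbered libraries deviated together with correlations of -0.016, 0.115 and 0.12 across genes, and were not used as a pairing. The table held 0 columns of other samples. Other steps ran in Python 3.11.15 with pandas 2.3.3, scipy 1.17.1, numpy 2.4.6 and, for figures, matplotlib 3.10.9.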

Additional observations from a re-analysis of the deposited data

How the results depend on the processing

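The number of the 29 genes called different was 0 under every alternative run, the 2 other scalings, the 2 other filters, both other pseudocounts, voom, the replicate block and each library left out. The median log2 fold change stayed above 0 under all of them, between 0.19 (pseudocount 1) and 0.28 for the sterol genes and between 0.13 and 0.25 for the fatty acid genes. The sterol genes with each Crlf2-/- library above each WT library numbered 9 to 13, and the fatty acid genes 3 or 4, under the other scalings and with single libraries left out. Leaving out a library can only keep or raise these counts, from 10 and 3, so it does not test how stable they are. These alternatives were chosen after seeing the data, as was leaving out Fdps.

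Over all genes, 2 were called. This count was 6 with no filter, 1 with at least 10 fragments in every library and 1 to 14 with single libraries left out (14 without Crlf2-/- replicate 1). With the replicate block it was 4, and the block changed no call among the 29 genes. The numbers share no stated mouse, litter or day, so this fit is given for completeness. The cause of these shifts was not tested.

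Of the 29 genes, 24 kept the sign of their log2 fold change throughout. The others turned only with a library left out. Without WT replicate 1, Acat2 was 0.044, Tm7sf2 0.050, Me1 -0.038 and Fasn -0.0033, and Acat2 was 0.043 without Crlf2-/- replicate 1. Pmvk was -0.21 without WT replicate 3, -0.029 without Crlf2-/- replicate 2 and -0.15 without Crlf2-/- replicate 3. Leave-one-out values ran from -0.19 to 0.044 for Acat2, -0.21 to 0.21 for Pmvk, -0.27 to 0.050 for Tm7sf2, -0.038 to 0.12 for Me1 and -0.0033 to 0.21 for Fasn. Among pathway genes outside the list they ran from -0.085 to 0.016 for Insig2, -0.066 to 0.14 for Scap, -0.18 to 0.023 for Acss2, -0.13 to 0.11 for Abca1 and -0.13 to 0.047 for Abcg1. The cause was not tested.

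With 3 hearts per group, the exact permutation test cannot go below p = 0.1. Low genes, above all Fdps with 5 to 26 fragments and a log2 fold change of 0.14 to 1.28 across pseudocounts and voom, and those that share sequence with other genes are the least certain.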
